A study of Homo sapiens with 6 samples.

Results

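Mitochondria keep their own proteases and chaperones, which fold imported proteins and remove damaged or unassembled ones. The 10 genes described here, LONP1, CLPP, CLPX, YME1L1, AFG3L2, SPG7, OMA1, HTRA2, HSPA9 and TRAP1, encode proteases and chaperones of this kind. They were taken by name, and all 10 were among the 19792 genes listed by symbol. Doxycycline (DOX) is an antibiotic that also inhibits the mitochondrial ribosome, and loss of balance between proteins made inside mitochondria and those imported is a known trigger of the mitochondrial unfolded protein response, in which chaperones and proteases of this kind are induced.

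RNA-seq was performed on BT-549 cells, a human triple-negative breast cancer line, with an integrated tetracycline-inducible shRNA against WDR5 and puromycin resistance. Of the 6 cultures, 3 received vehicle (0.1% DMSO) and 3 received 500 ng/ml DOX, which switches the shRNA on, for 7 days. All 6 carried the shRNA, so an action of DOX itself and silencing of WDR5 cannot be told apart in this design. The value analysed for each gene is the authors' mean normalized count, a single mean over the vehicle and DOX libraries together, in which each library's reads were first divided by its size factor. No comparison of DOX with vehicle was made, and the levels below describe the 6 libraries as 1 pool, without a spread between cultures.

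The size factors of the libraries could be read from the lowest values. Means under 1 took the values that whole reads in libraries with 6 size factors would give, for 3195 of 3195 genes within 1e-06. The 6 size factors were themselves read from the most frequent of these means, so genes at those values fit by construction. The 6 size factors ranged from 0.737 to 1.34, a 1.82-fold range. They are scaling factors, and sequencing depth itself was not measured. The fewest reads that a mean can stand for follow from the smallest size factor, and the intervals given below (95%, exact Poisson) use that number. At least 1353 reads stand behind the mean of HTRA2 and at least 162822 behind that of HSPA9. The intervals cover counting error only, not the difference between cultures or between treatments. WDR5, the silenced gene, had an authors' mean normalized count of 1143, which as a mean over both groups does not show its silencing. VIM, a mesenchymal marker that is high in BT-549 cells, had an authors' mean of 47782. The epithelial genes EPCAM, CDH1 and KRT5 had 1.30, 59.6 and 0.909, and the hormone receptor genes ESR1 and PGR had 0.790 and 0.801. ERBB2, which is not amplified in triple-negative cells, was at 1221, above 75.7% of all genes, and so was not low as ESR1 and PGR were. Among markers of other cell types, PTPRC of leukocytes was at 44.7, PECAM1 of endothelium at 2.86 and ALB of hepatocytes at 4.0.

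The 10 genes covered a wide range of levels. The highest authors' mean normalized count, that of HSPA9, was 120-fold that of the lowest, HTRA2. The median of the 10 was 1858, above 82.5% of all genes and above 74.4% of the 13548 genes with a mean of at least 10. All 10 lay above the median of all genes (187), and 8 of 10 lay above the median of genes at 10 or more (677), the exceptions being OMA1 and HTRA2. Together they held 0.241% of the summed normalized counts, and 57.6% of that sum belonged to HSPA9 and 20.8% to YME1L1. Because longer transcripts give more reads, levels of different genes were compared per kb of the representative transcript of GENCODE 44. On that scale the range narrowed to 48.8-fold, from 171 per kb for HTRA2 to 8365 for HSPA9. The per-kb levels of 4 genes (HSPA9, YME1L1, LONP1 and TRAP1) were at or above a percentile of 90 among the 18323 genes with a transcript length.

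**Figure D1:**
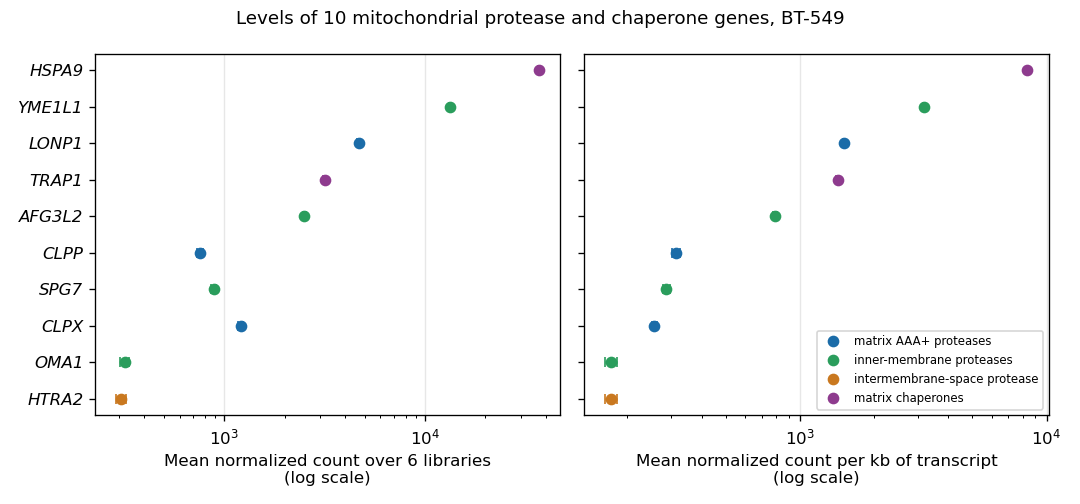
Each point is the authors' mean normalized count over 6 libraries (left) or the same value per kb of transcript (right) of 1 gene, on log axes, with bars for the 95% counting interval where it is wider than the point and colours for the role. HSPA9 (8365 per kb) and YME1L1 (3182 per kb) stand above the rest, and OMA1 and HTRA2 share the lowest place on the representative transcripts.

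HSPA9, or mortalin, is the matrix HSP70 that pulls proteins in through the import channel and folds them. It lies on chromosome 5 of GRCh38 from 138553756 to 138575675, on the minus strand. Its authors' mean normalized count was 36837 (interval 36659 to 37017), at rank 42 of all genes. Per kb its level was 8365 (8324 to 8405), at a percentile of 99.1. TRAP1, the HSP90 of the matrix, lies on chromosome 16 from 3651639 to 3717553 on the minus strand, and its mean was 3161 (3109 to 3214). Per kb TRAP1 was at 1422 (1398 to 1446), so that HSPA9 was 5.88-fold higher per kb than TRAP1 (interval of the ratio 5.78 to 5.99). This ratio was 3.61 with the longest transcripts and 12.1 with the coding length. HSPD1, the matrix chaperonin, was the nearest to HSPA9 among the other chaperones on the representative transcripts. The ratio of HSPA9 to HSPD1 was then 1.16 per kb (1.15 to 1.17), against 1.50 with the longest transcripts and 1.92 with the coding length. GRPEL1, a nucleotide exchange factor that resets HSPA9, was at 613 per kb, and HSPA9 was 13.6-fold above it (13.3 to 14.0), or 9.15-fold with the longest transcripts and 7.23-fold with the coding length.

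The matrix holds the proteases LON and ClpXP. LONP1, which degrades oxidized and misfolded matrix proteins and binds mitochondrial DNA, lies on chromosome 19 from 5691834 to 5720572 on the minus strand. Its authors' mean normalized count was 4669.6 (4606 to 4734), at rank 1214, and its level per kb was 1510.2 (1490 to 1531). CLPP, the peptidase chamber of ClpXP, is on the same chromosome from 6361531 to 6370242 on the plus strand, with a mean of 758 (733 to 784). CLPX, the unfoldase that feeds the CLPP chamber, lies on chromosome 15 from 65148219 to 65185342 on the minus strand, with a mean of 1208 (1176 to 1241). The order of the ClpXP genes depended on the scale. Without length, CLPX was 1.59-fold higher than CLPP, whereas per kb CLPX was at 257 and CLPP at 315, a ratio of 0.818 (0.783 to 0.855). The representative transcript of CLPP has 2410 bases, of which 831 are coding, and that of CLPX has 4695 bases, of which 1899 are coding. LONP1 was 5.87-fold higher per kb than CLPX (5.69 to 6.05) and 4.80-fold higher than CLPP (4.63 to 4.98). With the median length of coding transcripts in place of the representative transcript, these ratios were 3.67 and 1.39, and with the coding length they were 2.55 and 1.78.

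The inner membrane carries ATP-dependent proteases that face either side of it. YME1L1, the subunit of the i-AAA protease that faces the intermembrane space and cleaves OPA1 and import factors, lies on chromosome 10 from 27110111 to 27155266 on the minus strand. Its authors' mean normalized count was 13335 (13228 to 13443), at rank 256, and its level per kb was 3182 (3156 to 3208). AFG3L2 and SPG7 (paraplegin) form the m-AAA protease, which faces the matrix and matures a ribosomal protein. AFG3L2 forms complexes with itself as well, whereas SPG7 needs AFG3L2 as a partner. AFG3L2, on chromosome 18 from 12328944 to 12377227 on the minus strand, had a mean of 2508 (2462 to 2555) and 794 per kb (779 to 809). SPG7, on chromosome 16 from 89490719 to 89557766 on the plus strand, had a mean of 884 (857 to 913) and 288 per kb (279 to 297). AFG3L2 was thus 2.76-fold higher per kb than SPG7 (2.66 to 2.86). The ratio became 5.19 with the longest transcripts, since the longest transcript annotated for SPG7 has 6369 bases against 3076 for the representative one. YME1L1 was 4.01-fold higher per kb than AFG3L2 (3.93 to 4.09). This ratio was 4.42 with the longest transcripts, 4.47 with the median coding transcript and 5.92 with the coding length.

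OMA1 is a stress-activated metalloprotease of the inner membrane that cleaves OPA1 and DELE1. It lies on chromosome 1 from 58415384 to 58546802 on the minus strand, and its authors' mean normalized count was 319 (303 to 336), at rank 8820. YME1L1, which cleaves the same OPA1 protein, was 18.6-fold higher per kb than OMA1 (17.6 to 19.6). The ratio was 10.2 with the median coding transcript and 30.6 with the coding length. HTRA2, a serine protease of the intermembrane space that can be released in apoptosis, lies on chromosome 2 from 74529596 to 74533350 on the plus strand, with a mean of 306 (290 to 323), at rank 8924. Per kb OMA1 was at 172 (163 to 181) and HTRA2 at 171 (162 to 181), with intervals that overlap. This was the single pair of neighbours in the per-kb order whose counting intervals overlapped. With the median coding transcript OMA1 was above HTRA2 (375 against 191 per kb). With the longest transcripts (152 against 170) and the coding length (203 against 223) OMA1 was below HTRA2. CLPP, SPG7 and CLPX followed each other at 315, 288 and 257 per kb. Their intervals did not overlap, but their order changed with the transcript taken as the length, and SPG7 was the lowest of the 10 (139 per kb) with the longest transcripts. HSPA9, YME1L1, LONP1 and TRAP1 kept the first 4 places with the representative, longest and median coding transcripts and with the coding length alone.

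**Figure D2:**
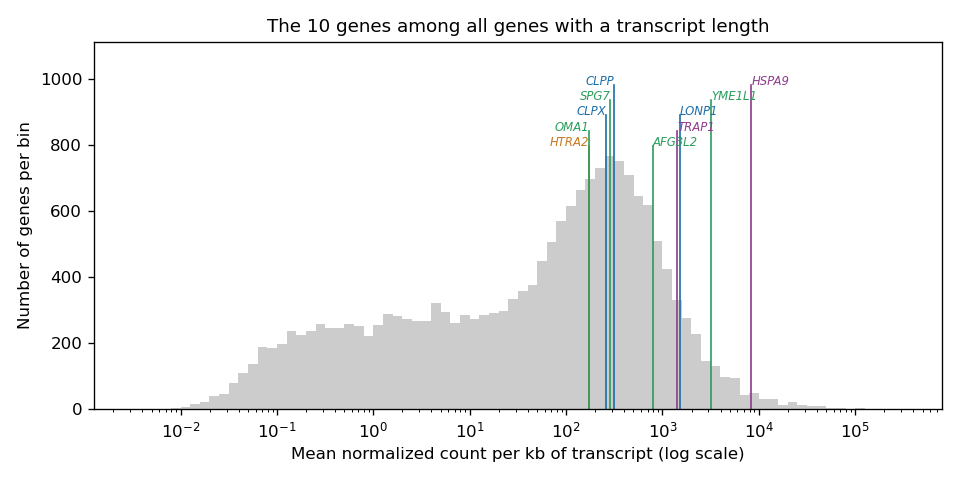
The grey bars count genes by mean normalized count per kb (log axis) for the 18323 genes with a transcript length, and the coloured lines mark the 10 genes. All 10 lie above the median of 80.4 per kb, with OMA1 and HTRA2 at a percentile of 61.1 and HSPA9 at 99.1. For genes with a mean of at least 10 the median was 208 per kb. Above it lay 8 of the 10, the exceptions being OMA1 and HTRA2.

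Other genes of mitochondrial protein quality control were listed by role, and all 33 had a value. Their median per kb was 570, and that of the 10 genes was 554, both on representative transcripts. Without length the medians were 1185 for the 33 and 1858 for the 10. The median of the 33 was not computed with other transcript lengths, and that of the 10 changed with the length. ATF4, a stress transcription factor gene, was at 8321 per kb on its representative transcript. The ratio of HSPA9 to ATF4 was 1.01 (0.995 to 1.02), and it fell under 1 with the longest (0.844) and the median coding transcript (0.907) and rose to 1.61 with the coding length. The other 32 were below HSPA9 per kb on the representative transcripts, with HSPD1 the nearest at 7219, and 7 of the 33 lay below HTRA2. Among the peptidases that trim import signals, PMPCA (1107 per kb) and PITRM1 (1173 per kb), which degrades the cleaved signals, were the highest. Both were below LONP1 and TRAP1. The inner-membrane signal peptidase genes IMMP1L and IMMP2L were at 67.8 and 79.2 per kb, below every one of the 10. PARL, a rhomboid protease, was at 456, and ATP23, another inner-membrane metalloprotease, at 79.5. The list of other proteases also held LONP2, the peroxisomal LON protease, at 198, and LACTB2, which is a nuclease, at 859.

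Among the cochaperones and other chaperones, DNAJA3 (863 per kb) and GRPEL2 (724 per kb) were near AFG3L2. CLPB, a disaggregase of the intermembrane space, was at 90.9 per kb, with a mean of 905 and a representative transcript of 9963 bases. HSPE1, the partner of HSPD1 in the chaperonin, was at 746 per kb, against 7219 for HSPD1. PAM16, a regulator of the import motor, was the lowest at 7.68 per kb (4.56 to 12.1). With a mean of 4.09 it was the only gene of the 33 under 10. Overlapping genes and copies were looked up for the 10 genes only. Whether reads of HSPE1, PAM16 or others of the 33 were lost to overlaps or copies was not tested. Among the genes listed as scaffolds and regulators, PHB2 and STOML2 were at 2978 and 2997 per kb, close to YME1L1, and PHB at 1118. For the pathway that reports mitochondrial stress to the cytosol, the OMA1 substrate DELE1 was at 210 per kb, the kinase EIF2AK1 at 1342, and the transcription factor genes ATF4, DDIT3 and ATF5 at 8321, 2805 and 570. OPA1, the shared substrate of YME1L1 and OMA1, was at 709.

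**Figure D3:**
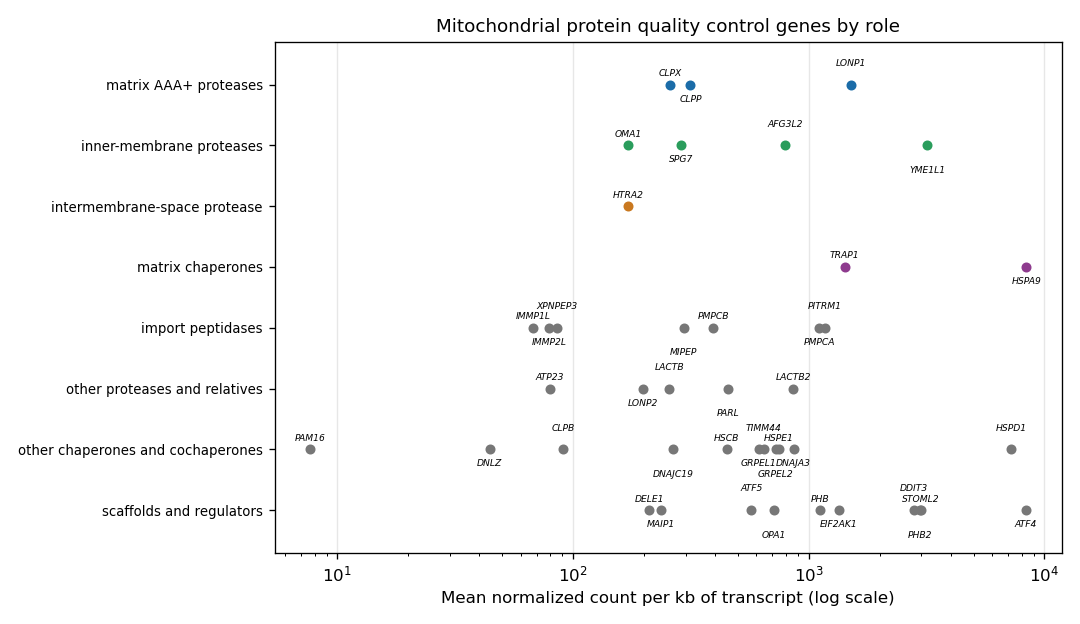
Each point is 1 gene, placed by its mean normalized count per kb of transcript (log axis) in the row of its role, with the 10 genes in colour and the other 33 in grey. HSPA9 at 8365 and ATF4 at 8321 are the highest points, and PAM16 at 7.68 the lowest.

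Some reads cannot be given to a member with certainty. On the same strand, OMA1 shared 257 exonic bases with DAB1, whose authors' mean was 0.226, and HSPA9 hosts the small nucleolar RNAs SNORD63 and SNORD63B, with means of 17.5 and 14.2. TRAP1 shared 65 exonic bases on its strand with a long noncoding RNA gene that had no value. On the opposite strand, TRAP1 shared 28.5% of its exonic bases with DNASE1 (authors' mean 104) and HTRA2 shared 27.5% with LOXL3 (24.4) and 4.85% with AUP1 (1309). AFG3L2 shared 11.7% with TUBB6 (2328) and YME1L1 shared 6.04% with MASTL (2321). LONP1 shared 0.835% with RPL36 (4657), and CLPP shared 0.991% with a long noncoding RNA gene that had no value. The libraries were stranded, but whether the counting used the strand is not given in the sources used here. Processed or partial copies are annotated for HSPA9 (HSPA9P1), AFG3L2 (AFG3L2P1) and YME1L1 (YME1L1P1), and none of the 3 was listed. The AFG3L1P pseudogene, a relative of AFG3L2, had an authors' mean of 277. How reads with several positions were treated is not stated.

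The start regions of the 10 genes were also compared. RefSeq start windows (GRCh38.p14) were found for 8 of 10 genes, in 11 windows, and not for CLPP and YME1L1. In the 250 bases before the start, the member windows held 18 to 38 CpG, each above the median of 16 for the 22199 windows of coding genes. Their GC content ranged from 62.4% to 77.2%, with a median of 62% over all windows of coding genes. The lowest of both, 18 CpG and 62.4%, came from 1 HTRA2 window whose bases after the start were found in no GENCODE transcript of the gene. The lowest of the other 10 were 19 CpG and 65.6%. A GC box (GGGCGG on either strand) was present before at least 1 start of 8 of 8 genes, and in 62.1% of the 15843 coding genes with a window. Of the 11 windows, 8 hold bases that GENCODE places in an annotated exon of the same gene, over all 250 bases for HSPA9. The regions of AFG3L2 and CLPX are printed because they end at the start of the representative transcript and hold 0 bases of an annotated exon of any gene. The AFG3L2 window (chr18:12377228-12377477, minus strand) had 76% GC, 31 CpG and 2 GC boxes. The CLPX window (chr15:65185343-65185592, minus strand) had 70.8% GC, 21 CpG and 1 GC box. Both are given 5′ to 3′ and end at the base before the start, with the GC boxes in capitals. Such a match is a description of letters, not of a bound site.
AFG3L2: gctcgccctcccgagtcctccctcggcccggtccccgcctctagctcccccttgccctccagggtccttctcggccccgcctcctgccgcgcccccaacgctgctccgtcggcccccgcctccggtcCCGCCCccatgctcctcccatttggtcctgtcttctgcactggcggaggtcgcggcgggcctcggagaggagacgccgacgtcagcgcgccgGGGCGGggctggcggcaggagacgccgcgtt
CLPX: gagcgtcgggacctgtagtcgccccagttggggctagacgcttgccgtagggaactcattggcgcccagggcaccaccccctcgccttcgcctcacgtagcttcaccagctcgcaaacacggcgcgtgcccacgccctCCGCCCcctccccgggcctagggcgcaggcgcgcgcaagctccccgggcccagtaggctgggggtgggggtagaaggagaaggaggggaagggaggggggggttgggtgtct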

How the data were processed

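RNA-seq was analysed for 3 vehicle and 3 DOX cultures of BT-549/tet-WDR5shRNA cells. Per the labels and the paper's methods, the authors prepared stranded poly(A) libraries, aligned reads to GRCh38 with STAR and normalized the counts with DESeq2. The gene counter and tool versions are not given in the sources used here. The unit is a signal, the mean normalized count over all 6 libraries as deposited. The deposited table also holds the authors' own comparison (fold change, standard error, statistic, p-value and adjusted p-value), which was not used, so DOX was not tested against vehicle. Of 19792 symbols, 17729 matched GENCODE 44 directly, 594 through a RefSeq synonym and 1469 not at all. The representative transcript is the MANE Select or else the Ensembl canonical one. Size factors were read from the 6 most frequent lowest means, a step checked on simulated data. A percentile is the percent of genes with a lower value. Intervals of ratios are exact binomial. The 10 genes and the lists were chosen with earlier results of these data known. The naming rule allowed the 10 genes, the listed genes and genes that overlap or copy a member, and the text names those a comparison uses. Statistics used scipy 1.17.1 and tables pandas 2.3.3 in Python 3.11.15, and figures used matplotlib 3.10.9.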

Additional observations from a re-analysis of the deposited data

How the results depend on the processing

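The median per-kb level of the 10 genes, 554 with representative transcripts, was 517 with the longest transcripts, 1040 with the median coding transcript and 981 with the coding length. The ratio of CLPX to CLPP per kb stayed under 1, at 0.379 with the median coding transcript and 0.697 with the coding length. The ratio of AFG3L2 to SPG7 per kb stayed above 1, at 5.19 with the longest and 2.52 with the median coding transcript. The coding length was added as an alternative after the values were seen. The members' median level was at a percentile of 82.5 among all genes and of 74.4 among genes at 10 or more. The per-kb levels of single genes moved beyond their counting interval for 5 of 10 genes with the longest transcript, 9 with the median coding transcript and 10 with the coding length. Their percentiles moved for 9 with genes at 1 or more and for 10 with genes at 10 or more. No paired analysis was possible because the value used is 1 mean over all libraries. For the same reason the planned count test, its filter alternative and the fits without each replicate were not run. Depth limits OMA1 and HTRA2 most, with counting intervals of 5.25% and 5.37% on either side.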

Other observations

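The deposited means keep the size factors of the libraries. The values that 1 read in 1 library gives were 0.124, 0.143, 0.144, 0.172, 0.210 and 0.226, with 257, 213, 234, 220, 165 and 168 genes at them. Which culture each size factor belongs to was not analysed here.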
